A study of Mus musculus with 7 samples.

Results

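The comparison described here set mouse articular chondrocytes treated with BMP2 against the same kind of cells given vehicle. Articular chondrocytes, the cells that make and keep up joint cartilage, were taken by digestion from the femoral head of the mouse and grown as primary cultures in high-glucose DMEM with fetal bovine serum. Cells in multi-well plates received vehicle or recombinant BMP2 at 100 ng/ml for 24 h, and total RNA was sequenced in bulk. The sources used here give no strain, age, sex or genetic change of the animals. The comparison holds 5 of the 7 libraries of the series: 3 with BMP2 (replicates 1, 2 and 3) and 2 with vehicle (replicates 1 and 2). The other 2 libraries came from cells given TGFβ1 at 5 ng/ml for the same time and enter a single paragraph near the end. Nothing in the labels tells if a replicate is an animal, a culture or a further library of the same culture, so each p-value speaks only of how far these samples spread, a spread that could be purely technical. Of 52459 gene names in the deposited count table, 12180 had enough counts in the 5 libraries to be tested, and these held 99.7% of the counts of each library.

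BMP2, bone morphogenetic protein 2, is a secreted growth factor of the TGFβ superfamily. It binds a complex of type I and type II receptors on the cell surface, and the activated receptor phosphorylates SMAD1, SMAD5 and SMAD9, which enter the nucleus with SMAD4 and switch on target genes such as the Id genes. Many of the targets feed back on the pathway: SMAD6 and SMAD7 act inside the cell, BAMBI is a decoy receptor, and noggin and gremlin bind BMPs outside the cell. In the growth plate BMP signals support cartilage formation and the maturation of chondrocytes to hypertrophy, the state that precedes mineralisation. Articular chondrocytes normally do not complete this course.

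Total counts lay between 6747997 and 10686885 per library. The 8 chondrocyte markers were all measured, with a summed level of 58263 and 58577 CPM (scaled counts, defined with the fold changes) in the vehicle libraries and between 51875 and 58013 CPM with BMP2, and Col2a1 alone made up most of it. Among the BMP2 libraries, replicate 1 differed most. The chi-square per gene, expected to be close to 1 where nothing but counting error separates a pair of libraries, was 14.6 and 19.1 against replicates 2 and 3, while it was 1.88 between those and 4.74 between the vehicle libraries. The first principal component of log2 CPM held 61.96% of the variance and separated BMP2 from vehicle; the second, with 21.0%, separated BMP2 replicate 1 from the rest. A single ribosomal RNA gene held 14.6% and 16.2% of the counts with vehicle and 13.8% to 15.9% with BMP2, and mitochondrial genes held 3.16% and 3.25% with vehicle and 3.33% to 3.69% with BMP2. In bulk RNA, fewer cells of a type and less RNA per cell cannot be told apart.

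BMP2 changed 1742 genes, 14.3% of those tested: 858 rose (7.04%) and 884 fell (7.26%). The counts of list members given below are to be read beside these shares. A gene is said to have risen or fallen where its adjusted p in edgeR's quasi-likelihood test, with Benjamini-Hochberg adjustment over all 12180 genes, was under 0.05; at an unadjusted p under 0.05 there were 3444. Changes are log2 ratios of BMP2 over vehicle, each with its standard error (SE). CPM, the usual depth-scaled unit of read counts, was taken over library sizes after TMM scaling. Changes past 4-fold were more often rises, 94 against 56 falls, while 295 genes rose and 333 fell by over 2-fold. The median of all tested genes was 0.0065. In 2802 genes (23.0%) every BMP2 library lay above both vehicle libraries and in 2792 (22.9%) every one lay below. The number of changed genes depended on single libraries: rises and falls were 331 and 413 with vehicle replicate 1 left out, 280 and 335 with vehicle replicate 2 left out, 570 and 616 without BMP2 replicate 2, 575 and 564 without BMP2 replicate 3, and 1516 and 1494 without BMP2 replicate 1. No changed gene reversed its direction in these 5 fits, and 478 of the 1742 (228 rises and 250 falls) passed in all of them. A reversal here means passing the threshold in the opposite direction, so a sign change short of the threshold was not counted. Of the 1742 genes, 1724 also passed without BMP2 replicate 1, the library that stood apart. Each gene named below as having risen or fallen passed in all 5 of these fits, unless the loss of the call is stated with it.

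**Figure D1:**
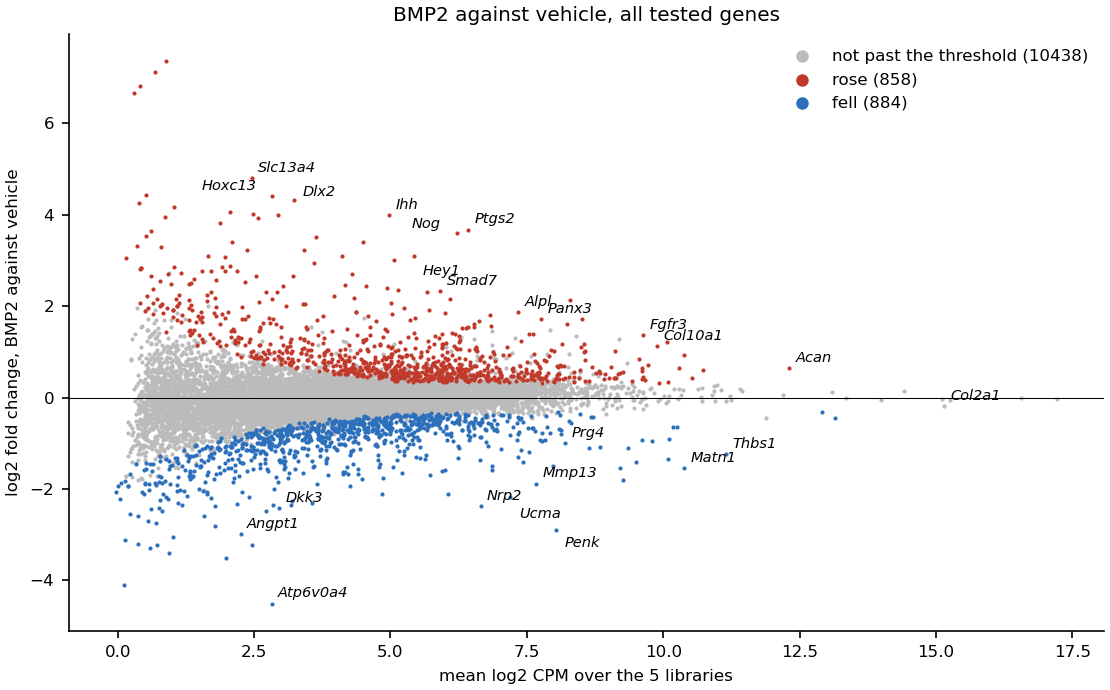
Each point is 1 of the 12180 tested genes, with its mean log2 CPM over the 5 libraries on the horizontal axis and its log2 fold change, BMP2 against vehicle, on the vertical axis. The 858 genes that rose are red and the 884 that fell are blue; Slc13a4, Hoxc13, Dlx2, Ihh and Ptgs2 are the highest of the labelled genes, Atp6v0a4 the lowest, the points above 6 are genes of very low level, and Col2a1 lies close to 0 at the right.

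Most genes of a list of SMAD1/5 targets rose. Of its 20 tested members 18 rose and 0 fell, beside 7.04% of all tested genes that rose, and the median log2 fold change of the list was 1.46. The list was chosen with earlier results of these data known, so this count is not an independent test. Some members, among them Smad6, Grem1 and Alpl, also stand in lists given below. The count was 17 or 18 in each fit that left out a library. Dlx2, a homeobox transcription factor of skeletal patterning (chromosome 2, 71543408 to 71546754, mm10), stood at 0.737 and 0.661 CPM with vehicle and at 15.3, 13.3 and 14.2 CPM with BMP2, a change of 4.33 (SE 0.27), edgeR adjusted p = 1.4e-05. The related gene Dlx3 went from 0.737 and 0.661 CPM to 13.2, 10.3 and 10.5 CPM (4.0, SE 0.31). Both genes were thus near the limit of detection with vehicle and well above it in every BMP2 library. Msx2, another homeobox target, rose from 4.57 and 4.76 CPM to 28.7, 22.97 and 25.7 CPM (2.47, SE 0.18), and Dlx5, which acts in bone formation, by 1.13 (SE 0.15). The homologue Msx1 was at 6.93 and 5.42 CPM with vehicle and 8.87, 7.66 and 5.94 CPM with BMP2 and did not pass (0.29, SE 0.24). Dlx1 and Dlx6 were below the count filter, with 0 and 1 reads of Dlx1 in the vehicle libraries and 5, 9 and 9 with BMP2, and with 1 and 3 reads of Dlx6 with vehicle and 9, 4 and 5 with BMP2.

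The Id genes, which encode inhibitors of basic helix-loop-helix factors and are the classical readout of BMP signalling, rose by smaller factors from higher levels. Id1 stood at 84.8 and 82.3 CPM with vehicle and 161, 186 and 189.7 CPM with BMP2, so that the groups did not overlap, and rose by 1.10 (SE 0.11), edgeR adjusted p = 0.000203. Id2 rose from 162 and 157 CPM to 309, 403 and 374 CPM (1.18, SE 0.13) and Id3 from 234 and 237 CPM to 523, 461 and 438 CPM (1.01, SE 0.11). Id4 was at 39.7 and 39.7 CPM with vehicle and at 151, 95.3 and 97.9 CPM with BMP2, highest in replicate 1; its rise of 1.53 was 1.28 without that library. Hey1, a basic helix-loop-helix repressor that also answers to Notch, rose from 7.08 and 8.2 CPM to 65.6, 62.9 and 68.2 CPM (3.10, SE 0.13). Atoh8, a helix-loop-helix factor, rose by 1.39 (SE 0.12).

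The printed sequences are the 250 bases before the RefSeq start sites of 4 of these rising genes (GRCm38.p6, the build of mm10), shown because each holds the letters GGCGCC, a GC-rich word bound by SMAD1/5 in published work; capitals mark GGCGCC and CAGAC, a word of the general SMAD binding element. Dlx2 is read on the minus strand of chr2:71546755-71547004, Id4 on the plus strand of chr13:48260866-48261115, Grem1 on the minus strand of chr2:113758649-113758898 and Alpl on the minus strand of chr4:137796385-137796634. None of these windows overlaps an annotated exon.
Dlx2: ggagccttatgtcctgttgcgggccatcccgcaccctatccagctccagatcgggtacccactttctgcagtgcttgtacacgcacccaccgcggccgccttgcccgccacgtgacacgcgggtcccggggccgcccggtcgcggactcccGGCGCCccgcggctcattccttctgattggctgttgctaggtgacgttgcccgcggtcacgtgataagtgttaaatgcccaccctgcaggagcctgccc
Id4: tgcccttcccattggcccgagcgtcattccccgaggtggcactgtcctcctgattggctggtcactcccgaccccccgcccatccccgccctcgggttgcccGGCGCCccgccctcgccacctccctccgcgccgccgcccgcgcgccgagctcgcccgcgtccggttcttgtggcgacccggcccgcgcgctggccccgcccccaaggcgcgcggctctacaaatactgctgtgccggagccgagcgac
Grem1: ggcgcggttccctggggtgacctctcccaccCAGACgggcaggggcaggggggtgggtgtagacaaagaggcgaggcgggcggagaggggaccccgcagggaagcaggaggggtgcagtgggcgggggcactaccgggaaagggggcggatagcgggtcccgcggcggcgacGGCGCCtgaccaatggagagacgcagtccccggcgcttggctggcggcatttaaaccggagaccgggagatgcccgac
Alpl: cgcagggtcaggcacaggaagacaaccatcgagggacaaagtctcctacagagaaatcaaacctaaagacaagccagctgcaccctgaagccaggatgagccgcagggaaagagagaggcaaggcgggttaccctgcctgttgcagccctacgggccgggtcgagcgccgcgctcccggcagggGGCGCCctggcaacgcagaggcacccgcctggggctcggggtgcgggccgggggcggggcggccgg

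The GGCGCC word starts 99 bases before the Dlx2 start, 148 before that of Id4, 78 before that of Grem1 and 66 before that of Alpl, and Grem1 also holds CAGAC at 219 bases. Alpl has a second RefSeq start, and its window (chr4:137766476-137766725) holds neither word. RefSeq start sites were found for 10 of the 18 targets that rose and for 9246 of the 12180 tested genes. For the shares that follow, each searched window also took in a short stretch after the start site, which the printed sequences leave out. GGCGCC, which reads the same on both strands, was in such a window of 6 of these 10 genes. The shares were 32.0% of 646 matched genes that rose, 23.1% of 672 that fell and 25.9% of all 9246. CAGAC, searched on both strands, was in 3 of the 10, beside 54.6%, 54.5% and 52.0% in the same order. The words GGCGCC and CAGAC can share 1 base, and a match describes the letters only.

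**Figure D2:**
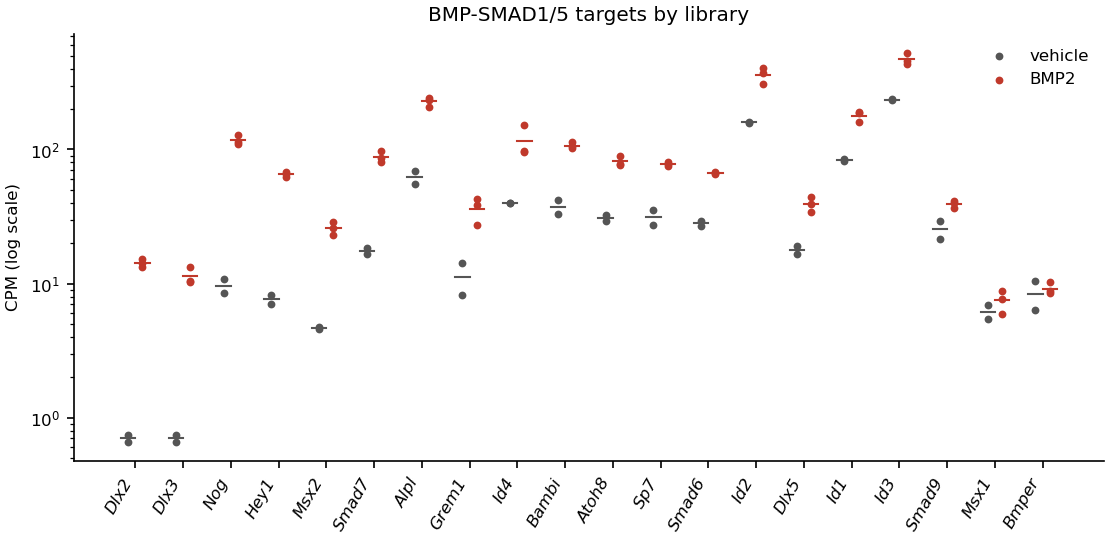
Levels of the 20 tested BMP-SMAD1/5 targets in each library (CPM, log scale), ordered by fold change; grey points are the 2 vehicle libraries, red points the 3 BMP2 libraries, and bars the group means. The groups do not overlap in the first 18 genes, from Dlx2 to Smad9, and they overlap in Msx1 and Bmper.

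Several brakes on the pathway rose. Smad7, which blocks receptor signalling of both BMP and TGFβ, stood at 18.4 and 16.7 CPM with vehicle and 80.01, 86.7 and 97.02 CPM with BMP2 (2.33, SE 0.13, edgeR adjusted p = 1.03e-05). Smad6, the inhibitor more selective for BMP, rose from 29.5 and 26.7 CPM to 66.4, 65.1 and 67.4 CPM (1.24, SE 0.11), and the decoy receptor gene Bambi from 33.02 and 41.7 CPM to 113, 105 and 103 CPM (1.52, SE 0.13). Pmepa1, a membrane protein that keeps SMAD2/3 from the receptor, rose from 24.8 and 25 CPM to 90.1, 85.8 and 91.4 CPM (1.84, SE 0.11). In each of these genes every BMP2 library lay above both vehicle libraries. Smad9 rose by 0.62 (SE 0.14) and no longer passed without BMP2 replicate 2 (0.60), BMP2 replicate 3 (0.58) or vehicle replicate 2 (0.40). Of the 19 SMAD genes and intracellular brakes 8 rose and 2 fell, and 4 of the rises, those of Smad7, Pmepa1, Bambi and Smad6, passed in all 5 fits. The rises were 5 without BMP2 replicate 2 and 4 without vehicle replicate 2, and the falls, Tob1 at −0.38 and Smad3 at −0.44, were 0 without BMP2 replicate 2, BMP2 replicate 3, vehicle replicate 1 or vehicle replicate 2. The signalling SMADs Smad1 (−0.06, SE 0.10) and Smad5 (−0.18, SE 0.13) did not pass.

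Among secreted antagonists, noggin had the largest change. Nog (chromosome 11, 89300638 to 89302332) rose from 10.8 and 8.46 CPM to 128, 110.1 and 114 CPM (3.61, SE 0.15, edgeR adjusted p = 3.32e-06). Grem1, the gene of gremlin, which binds BMP2 and BMP4, stood at 8.26 and 14.2 CPM with vehicle and 27.3, 42.6 and 38.7 CPM with BMP2 (1.67, SE 0.25). Crim1, a membrane protein that holds BMPs back at the cell surface, fell from 197 and 190.2 CPM to 128, 125 and 122 CPM (−0.63, SE 0.10). Of the 14 tested antagonists 3 rose and 2 fell, and the other changes, Chrdl2 (0.72) and Chrdl1 (−0.40), passed only with all 5 libraries or without BMP2 replicate 1. The count of rises was 5 without BMP2 replicate 1, and the falls were 1 in each other fit that left out a library. Chordin (Chrd) was at 4.57 and 2.65 CPM and 3.3, 3.98 and 3.02 CPM, a change of −0.07 (SE 0.31) that did not pass.

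Receptors and ligands moved less uniformly. Tgfbr3, the gene of betaglycan, a co-receptor that presents TGFβ and some BMPs, fell from 35.2 and 33.7 CPM to 8.4, 9.72 and 9.07 CPM (−1.93, SE 0.13), and Tgfbr2, the type II TGFβ receptor, from 121 and 122 CPM to 75.2, 60.2 and 57 CPM (−0.92, SE 0.13). All BMP2 libraries lay below both vehicle libraries in each. The type II BMP receptor gene Bmpr2 rose by 0.81 (SE 0.13), which did not pass without vehicle replicate 2 (0.65). The type I receptor genes Bmpr1a (−0.01, SE 0.10) and Bmpr1b (−0.10, SE 0.25) did not pass. Of 13 tested receptors and co-receptors 2 rose and 3 fell; the rises were 1 without vehicle replicate 1 and 0 without vehicle replicate 2. Among 10 tested BMP ligand genes Bmp3, a ligand known as a negative regulator of bone mass, fell from 3.69 and 2.38 CPM to 0.377, 0.147 and 0.313 CPM (−3.29, SE 0.48). Bmp4 (−1.89) and Bmp8a (−2.12) fell from low levels, at most 3.84 and 2.36 CPM; neither passed without vehicle replicate 1 (−2.15 and −2.09) or vehicle replicate 2 (−1.56 and −2.17), and Bmp4 did not pass without BMP2 replicate 2 (−1.74). Gdf10 rose by 0.75, and by 0.69 and 0.81 without vehicle replicates 1 and 2, where it did not pass. Bmp2 itself stood at 15.8 and 10.6 CPM with vehicle and 7.74, 10.3 and 9.07 CPM with BMP2 (−0.55, SE 0.21) and did not pass.

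Part of a list of TGFβ-SMAD2/3 targets also rose. Tgfbi, an extracellular matrix protein, rose from 162 and 146 CPM to 454, 529 and 539 CPM (1.72, SE 0.12). Other members went the other way: Ctgf (also Ccn2), the gene of connective tissue growth factor, fell from 1188 and 1331 CPM to 782, 599 and 564 CPM (−0.96, SE 0.13), and the lubricin gene Prg4 and the fibronectin gene Fn1 fell too. In all 7 of 19 tested members rose and 3 fell, with a median of 0.25. The rises included Smad7 and Pmepa1, which stand in more than 1 list, and were 4 without BMP2 replicate 2 or either vehicle library. The list was put together from known TGFβ responses, and its members did not share a direction here.

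The largest rise among genes of the hedgehog and PTHrP pathways, which set the pace of hypertrophy, was that of Ihh, the gene of Indian hedgehog, a signal made by prehypertrophic cells. Ihh (chromosome 1, 74945315 to 74951672) stood at 3.69 and 2.51 CPM with vehicle and 65.2, 39.6 and 41.9 CPM with BMP2. Its change was 3.99 (SE 0.30), edgeR adjusted p = 3.8e-05, and 3.72 without BMP2 replicate 1, the highest library. Ptch1, the hedgehog receptor and itself a hedgehog target, rose from 76.1 and 75.7 CPM to 152, 139 and 150.5 CPM (0.96, SE 0.10). Gas1, a hedgehog co-receptor, fell from 162 and 156 CPM to 52.8, 67 and 64.6 CPM (−1.37, SE 0.12). Gli1, another target, was at 3.24 and 4.76 CPM and 7.36, 4.27 and 4.79 CPM and did not pass (0.47, SE 0.31), nor did Pthlh, the gene of PTHrP, at 2.36 and 1.98 CPM and 1.98, 1.77 and 1.56 CPM (−0.28, SE 0.34). Pth1r, the receptor of PTHrP, rose by 1.02, and by 0.90 without vehicle replicate 1, where it did not pass, and 0.80 without BMP2 replicate 1. Of 21 tested genes of both pathways 5 rose and 3 fell; the rises were 3 without vehicle replicate 1 or vehicle replicate 2, and the falls were 5 without BMP2 replicate 1 and 1 without vehicle replicate 1.

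The hypertrophy list split by gene. Of its 21 members, all tested, 10 rose and 3 fell, and 7 and 3 of them did so in all 5 fits, with a median of 0.05. Col10a1, the collagen made by hypertrophic cells (chromosome 10, 34389981 to 34397085), rose from 553 and 547 CPM to 1226, 1181 and 1201 CPM (1.13, SE 0.08, edgeR adjusted p = 3.55e-05). Panx3, a channel protein of prehypertrophic cells, rose from 90.4 and 92.7 CPM to 298, 304 and 299 CPM (1.71, SE 0.10), and Alpl, the phosphatase that releases phosphate for mineral, from 69.1 and 55.4 CPM to 207, 234 and 243 CPM (1.87, SE 0.13). The 5 libraries fell into separate groups for each of these. The transcription factor genes Sp7 and Mef2c, both needed for hypertrophy or bone formation, rose by 1.31 (SE 0.12) and 1.06 (SE 0.10), and Vegfa, which draws vessels into hypertrophic cartilage, from 51.6 and 53.7 CPM to 111, 105 and 110.5 CPM (1.05, SE 0.10). The 3 genes that fell are known from late stages, in which matrix is degraded and mineralised. Alpl and Vegfa, tied above to mineral and vessel entry, rose, so the list did not divide cleanly by stage, and such a division was not tested. Mmp13, the collagenase of terminal hypertrophy (chromosome 9, 7272514 to 7283331), fell from 354 and 372 CPM to 89.3, 109 and 96.6 CPM (−1.88, SE 0.11, edgeR adjusted p = 1.14e-05). Spp1, the gene of osteopontin, fell from 875 and 1065 CPM to 332, 361 and 313 CPM (−1.53, SE 0.11) and Ibsp, that of bone sialoprotein, from 184 and 201 CPM to 94.4, 89.97 and 81.3 CPM (−1.12, SE 0.11). Runx2, a regulator of the whole course, was at 46.3 and 45.2 CPM with vehicle and 46.99, 44.8 and 50.4 CPM with BMP2 and did not pass (0.05, SE 0.10).

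**Figure D3:**
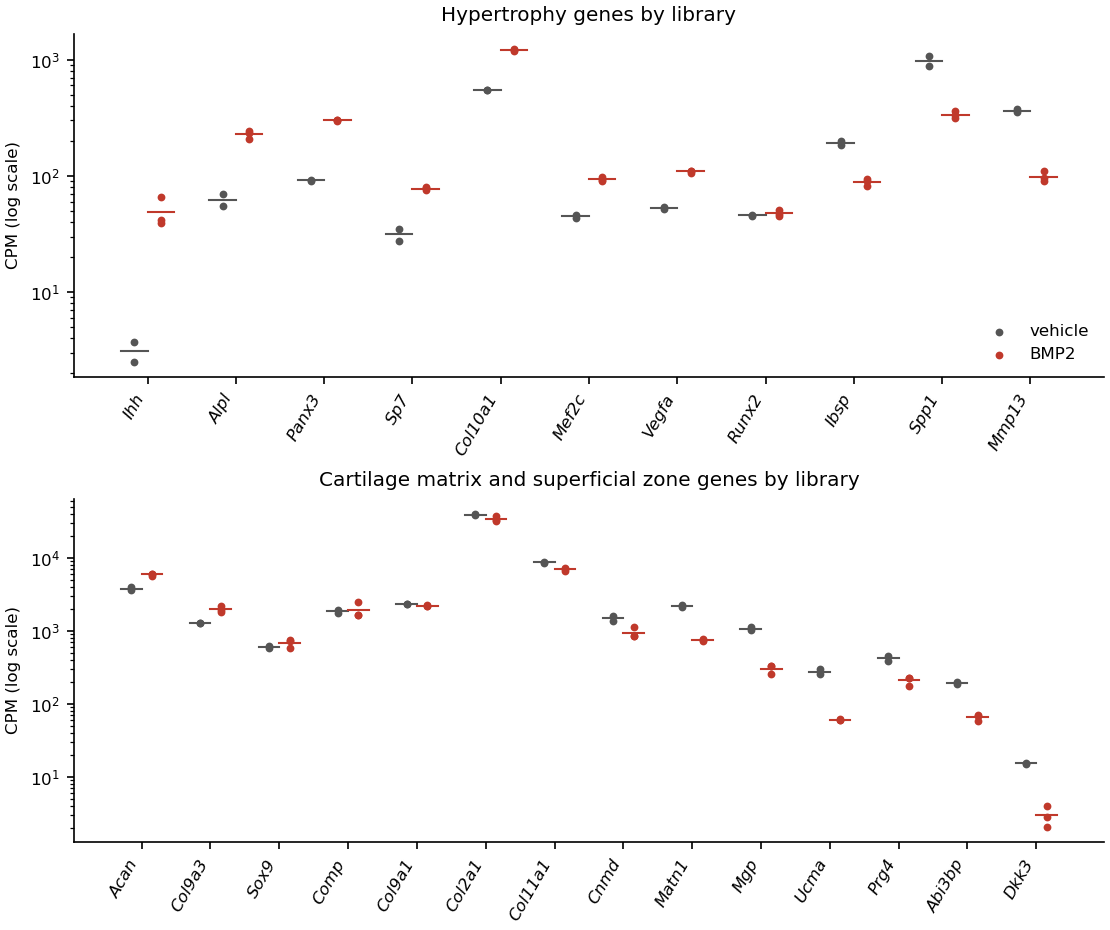
Levels in each library (CPM, log scale) of hypertrophy genes, upper panel, and of cartilage matrix and superficial zone genes, lower panel; grey points are the 2 vehicle libraries, red points the 3 BMP2 libraries and bars the group means. Ihh, Alpl, Panx3, Sp7, Col10a1, Mef2c and Vegfa lie higher with BMP2 and Ibsp, Spp1 and Mmp13 lower, while Acan lies higher and Matn1, Mgp, Ucma, Prg4, Abi3bp and Dkk3 lower.

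Genes of mineralisation and phosphate moved in both directions. Beside Alpl, the annexin gene Anxa6, whose product sits in matrix vesicles, rose from 81.4 and 77.4 CPM to 135, 136 and 122 CPM (0.72, SE 0.11). Enpp1, which makes the mineral inhibitor pyrophosphate, fell by 0.58 (SE 0.10), and its transporter gene Ank did not pass (−0.16, SE 0.14). Mgp, the gene of matrix Gla protein, an inhibitor of mineralisation, fell from 1127 and 1014 CPM to 258, 331 and 327 CPM (−1.81, SE 0.12). Of 14 tested members 5 rose and 5 fell, and 2 and 4 held in all 5 fits; the rises were 3 without BMP2 replicate 2 or BMP2 replicate 3 and 2 without vehicle replicate 1 or vehicle replicate 2. In the osteoblast list 3 of 15 tested members rose (Dlx3, Sp7 and Dlx5) and 3 fell (Ibsp, Omd and Tnfrsf11b); without BMP2 replicate 1 both counts were 5. Tnfrsf11b, the gene of osteoprotegerin, a decoy that limits osteoclast formation, fell from 155 and 168 CPM to 102, 93.4 and 96.9 CPM (−0.73, SE 0.10). Collagen I did not pass, with Col1a1 at −0.06 (SE 0.11) and Col1a2 at 0.19 (SE 0.10).

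Cartilage matrix genes that changed were divided, with 5 rises and 6 falls among 29 tested. Acan, the gene of aggrecan, the main cartilage proteoglycan (chromosome 7, 79053483 to 79115099), stood at 3947 and 3685 CPM with vehicle and 6112, 5704 and 6020 CPM with BMP2, a rise of 0.64 (SE 0.07), edgeR adjusted p = 0.000455. Col2a1, the main cartilage collagen, was at 38772 and 39634 CPM with vehicle and 37888, 31897 and 32882 CPM with BMP2 and did not pass (−0.20, SE 0.08, edgeR adjusted p = 0.13), though every BMP2 library lay below both vehicle libraries. Sox9, the transcription factor that drives both, was at 613 and 583 CPM and 582, 735 and 751 CPM, with the vehicle values inside the range of the BMP2 libraries (0.20, SE 0.12). Matn1, the gene of cartilage matrix protein matrilin 1, fell from 2253 and 2144 CPM to 784, 735 and 745 CPM (−1.54, SE 0.08, edgeR adjusted p = 6.14e-06). Ucma, a small secreted protein of the upper growth plate, fell from 256 and 297 CPM to 61.7, 60.4 and 60.1 CPM (−2.19, SE 0.11). Cilp2, a matrix protein gene, fell by 0.94 (SE 0.15). Col9a3, a chain of collagen IX, rose by 0.61 and Cnmd, the gene of the vessel inhibitor chondromodulin, fell by 0.65; neither passed without vehicle replicate 2 (0.58 and −0.55). Comp was at 2513, 1663 and 1641 CPM with BMP2 and changed sign without replicate 1, from 0.06 to −0.18, and passed in neither. Of the changes in the list, 1 rise and 4 falls passed in all 5 fits, and its median was 0.06. The rises were 9 without BMP2 replicate 1, 3 without BMP2 replicate 2, and 2 without vehicle replicate 1 or vehicle replicate 2. Per kilobase of the deposited gene length, Acan went from 511 to 796 CPM, while Matn1 went from 1099 to 377 CPM.

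The list of superficial zone and joint lining genes, named for the flat cells that lubricate the joint and the tissue that lines it, held 6 falls and 1 rise. It had 13 tested members, and over all tested genes 7.26% fell; 4 of the falls held in all 5 fits, and the median was −0.68. Prg4, which encodes the lubricant lubricin (chromosome 1, 150449412 to 150466165), stood at 456 and 388 CPM with vehicle and 178, 226 and 227 CPM with BMP2 (−1.01, SE 0.13, edgeR adjusted p = 0.000834). Abi3bp, a matrix protein gene, fell from 202 and 188 CPM to 59.1, 69.4 and 67.3 CPM (−1.58, SE 0.11), Dkk3, a secreted relative of the Wnt inhibitors, from 15.2 and 15.3 CPM to 2.08, 3.98 and 2.81 CPM (−2.41, SE 0.24), and Vit, the gene of vitrin, fell by 1.14 (SE 0.17). No BMP2 library reached the vehicle levels of these 4 genes. Wif1, a Wnt inhibitor of the same list, rose from 122 and 119 CPM to 182, 197 and 206 CPM (0.70, SE 0.10). Creb5, a transcription factor of the superficial zone, fell by 0.74, and did not pass without vehicle replicate 1 (−0.66). The lining genes Dpt, Sfrp2, Tnxb and Pla2g2a were below the count filter. Markers of fibroblasts and synovium were lower in the same libraries, at a summed 291.5 and 297.8 CPM with vehicle and 196.6 to 214.7 CPM with BMP2, and their part in the result was not tested. Of 21 tested transcription factors of joints and tendons 2 rose and 6 fell; the rises were 1 without BMP2 replicate 2, BMP2 replicate 3 or either vehicle library, and the falls were 3 without vehicle replicate 2. Scx, which marks tendon cells, fell from 8.7 and 8.46 CPM to 3.68, 4.42 and 3.54 CPM (−1.16, SE 0.21), and Osr1 fell by 1.19 (SE 0.18) and Foxc1 fell by 0.68 (SE 0.10), whereas the homeobox gene Prrx2 rose from 9.58 and 12.8 CPM to 32.3, 34.5 and 32.5 CPM (1.55, SE 0.15).

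Small leucine-rich proteoglycans, which bind collagen fibrils and growth factors, fell in 5 of 14 tested members. Dcn, the gene of decorin, went from 1682 and 1748 CPM to 641, 699.6 and 681 CPM (−1.35, SE 0.08, edgeR adjusted p = 1.4e-05), and Ogn, that of osteoglycin, from 948 and 991 CPM to 436, 442 and 465 CPM (−1.12, SE 0.09). Podnl1, a podocan-like member, had the largest change, from 8.85 and 8.99 CPM to 1.13, 0.442 and 0.625 CPM (−3.50, SE 0.32). Ecm2 fell by 1.70 (SE 0.18) and Omd fell by 0.80 (SE 0.10). All 5 falls passed in each fit that left out a library. The rises, Epyc (0.80) and Lum (0.42), were 5 genes without BMP2 replicate 1, 1 without BMP2 replicate 2, BMP2 replicate 3 or vehicle replicate 2, and 0 without vehicle replicate 1. Biglycan (Bgn, 0.13, SE 0.09) and fibromodulin (Fmod, 0.06, SE 0.08) did not pass, and the list's median was 0.02.

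The fibrous and pericellular matrix list moved both ways, with 11 rises and 9 falls among 42 tested members and a median of 0.03. Collagen VI, which forms the pericellular shell of the chondrocyte, was higher: Col6a1 rose from 833 and 899.8 CPM to 1870, 1532 and 1534 CPM (0.93, SE 0.11) and Col6a2 from 573 and 616 CPM to 1612, 1249 and 1294 CPM (1.22, SE 0.12). Col6a3 rose by 0.52, and not past the threshold without vehicle replicate 2 (0.47). The tenascin gene Tnn and the thrombospondin gene Thbs3 rose by 1.79 (SE 0.21) and 1.07 (SE 0.14). Other thrombospondins fell, Thbs1 from 3573 and 3372 CPM to 1279, 1613 and 1523 CPM (−1.24, SE 0.10) and Thbs2 from 76.4 and 78.7 CPM to 27.7, 35.3 and 34.4 CPM (−1.26, SE 0.12). Fn1, the gene of fibronectin, stood at 10818 and 10678 CPM with vehicle and 7631, 8129 and 7926 CPM with BMP2 (−0.45, SE 0.07), and Col8a1 fell by 1.53 (SE 0.18). The rises were 7 without BMP2 replicate 2 or BMP2 replicate 3, 5 without vehicle replicate 1 and 4 where vehicle replicate 2 was left out, and the falls were 5 without either vehicle library. The fibroblast and synovium markers that were lower with BMP2, as given above, were almost all Col3a1 and Pdgfrb. Of the 8 markers 3 were tested and Pdgfrb fell (−0.92, SE 0.10), as did Col3a1 (−0.41), which passed only with all 5 libraries or without BMP2 replicate 1. The defining markers Thy1, Pi16, Dpp4 and Has1 were under 0.7 CPM in all 5 libraries, and Dpt at 1.33 and 0.926 CPM with vehicle and at most 0.0944 CPM with BMP2. Their part in the result was not tested.

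Enzymes that build or cut the matrix changed at a few points. Of 45 tested genes of glycosaminoglycan synthesis and turnover 7 rose and 5 fell. Ugp2 and Ugdh, which make UDP-glucose and UDP-glucuronate, the precursors of the sugar chains, rose from 97.2 and 99.3 CPM to 253, 269 and 254 CPM (1.40, SE 0.10) and from 125 and 126 CPM to 252, 235 and 245 CPM (0.96, SE 0.10). Cemip, a hyaluronan-degrading protein, fell from 14.01 and 12.4 CPM to 2.64, 2.5 and 1.88 CPM (−2.49, SE 0.22). The rises were 11 without BMP2 replicate 1, 4 without BMP2 replicate 3 or vehicle replicate 1 and 2 where vehicle replicate 2 was left out, and the falls 3 and 2 without vehicle replicates 1 and 2. Of 22 tested metalloproteinases and inhibitors 2 rose and 7 fell. Mmp11, stromelysin 3, rose from 1.77 and 2.38 CPM to 12.3, 13.4 and 13.96 CPM (2.65, SE 0.23), and the other rise, that of Mmp19 (1.30), was lost without BMP2 replicate 2 (1.18), vehicle replicate 1 (1.10) or vehicle replicate 2 (1.56). Beside Mmp13, the membrane protease gene Mmp14 fell by 0.60 (SE 0.10) and the inhibitor gene Timp2 from 656 and 679 CPM to 337, 303 and 304 CPM (−1.08, SE 0.09). Adamts5, the main mouse aggrecanase, stood at 13.7 and 9.79 CPM and 4.81, 6.33 and 6.57 CPM (−1.0, SE 0.22) and did not pass without vehicle replicate 1 (−0.73).

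Some genes of the Wnt pathway changed. Of 16 tested Wnt ligands and targets 5 rose and 1 fell, with 4 of the rises in all 5 fits. Wnt11, a ligand of cell shape and movement, rose from 5.16 and 4.36 CPM to 25.4, 20.6 and 20.01 CPM (2.21, SE 0.19). The R-spondin receptor genes Lgr6 and Lgr4, which amplify Wnt signals, rose from 13.4 and 11.9 CPM to 52.3, 41.8 and 40.1 CPM (1.83, SE 0.16) and from 65.5 and 68.1 CPM to 129, 118 and 117 CPM (0.86, SE 0.10). Nkd1, a feedback inhibitor, rose by 1.21 (SE 0.18), while Axin2, the usual readout of canonical Wnt signalling, was at 10.6 and 9.65 CPM and 8.02, 6.18 and 7.19 CPM and did not pass (−0.49, SE 0.19). The 1 fall, that of Apcdd1 (−1.43), was lost without vehicle replicate 2, and the falls were 4 without BMP2 replicate 1 and 2 without BMP2 replicate 2. Secreted Wnt inhibitors split, with 3 rises and 3 falls among 8 tested. Notum, a lipase that inactivates Wnt proteins, stood at 0.59 and 0.926 CPM with vehicle and 10.5, 4.86 and 6.15 CPM with BMP2 (3.23, SE 0.48, and 2.83 without BMP2 replicate 1), and Sfrp4, a soluble receptor, fell from 7.67 and 6.48 CPM to 1.13, 0.883 and 0.938 CPM (−2.80, SE 0.29). Exons of Notum overlap genes on the other strand over 38.1% of their bases, and reads of both cannot be told apart where strand was not used in counting, which the sources used here do not give. The same holds for Gas1 over 19.9% of its exon bases, Angpt1 over 14.2%, Fgfr3 over 13.9%, Fgf2 over 13.2% and Hmgcs1 over 12.1%.

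Fgfr3, the FGF receptor that restrains growth-plate chondrocytes, rose from 406 and 411 CPM to 1309, 934 and 922 CPM (1.37, SE 0.15, edgeR adjusted p = 0.00034); the rise was 1.18 without BMP2 replicate 1, the highest library. Fgf2 rose by 0.84 (SE 0.12). Of 19 tested FGF and ERK feedback genes 2 rose and 4 fell, and none of the falls held in all 5 fits: they were 2 without BMP2 replicate 2, 1 without BMP2 replicate 3 and 0 without either vehicle library. Of 13 tested IGF genes 1 rose and 4 fell, beside 7.04% and 7.26% of all tested genes. The binding protein gene Igfbp6 did not pass, and Igfbp2 and Igfbp3 were below the count filter. Igfbp5, an IGF binding protein abundant in bone, fell from 422 and 409 CPM to 139, 139 and 161 CPM (−1.51, SE 0.10), Igfbp4 from 256 and 295 CPM to 121, 98.1 and 89.6 CPM (−1.42, SE 0.14), and the protease gene Htra1, which cleaves IGF binding proteins, fell by 0.69 (SE 0.11). Stc2, a secreted inhibitor of the protease that frees IGF, rose by 0.78 (SE 0.11). In the Notch list of 15 tested genes Hey1 was the 1 member to change in all 5 fits; the list had 2 rises and 3 falls, with 1 rise and 0 falls without vehicle replicate 1 or vehicle replicate 2. The Notch target Hes1 stood at 7.22 and 11.1 CPM and 60.2, 14.7 and 15.9 CPM (1.74, SE 0.60), highest in BMP2 replicate 1, and did not pass.

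Of the genes of prostaglandin synthesis and handling, 2 rose and 5 fell among 12 tested. Ptgs2, the inducible cyclooxygenase COX-2 (chromosome 1, 150100031 to 150108227), stood at 12.7 and 8.46 CPM with vehicle and 116, 141 and 146 CPM with BMP2 (3.67, SE 0.19, edgeR adjusted p = 6.14e-06), and Pla2g4a, the phospholipase that frees its substrate, rose from 13.3 and 11.2 CPM to 29.8, 31.4 and 28.7 CPM (1.29, SE 0.14). Ptges, the terminal prostaglandin E synthase, was at 0.737 and 0.529 CPM and 2.17, 1.33 and 1.67 CPM and did not pass (1.46, SE 0.47). Ptgis, which makes prostacyclin, fell by 0.81 (SE 0.12). Pla2g5, another phospholipase, fell from 9.58 and 9.79 CPM to 3.4, 3.98 and 5.21 CPM (−1.21, SE 0.22) and did not pass without vehicle replicate 2 (−1.20), and the constitutive cyclooxygenase gene Ptgs1 did not pass (−0.64, SE 0.28). The falls of the list were 3 without BMP2 replicate 2 or BMP2 replicate 3, 2 without vehicle replicate 1 and 1 without vehicle replicate 2. Among 12 tested inflammatory mediators the chemokine gene Cxcl14 rose from 14.2 and 15.2 CPM to 40.7, 40.5 and 39.6 CPM (1.45, SE 0.12) and Cxcl12 fell from 10.2 and 8.73 CPM to 4.15, 4.27 and 4.17 CPM (−1.17, SE 0.19); 3 members rose and 1 fell, and the rises were 1 without vehicle replicate 1 or vehicle replicate 2.

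Several secreted signals of nerves and vessels fell. Penk, the precursor of the enkephalin opioid peptides (chromosome 4, 4133531 to 4138819), stood at 575 and 518 CPM with vehicle and 61.2, 78.2 and 80.9 CPM with BMP2 (−2.90, SE 0.13, edgeR adjusted p = 4.04e-06); 14.3% of its exon bases overlap a gene on the other strand. Cpe and Pam, enzymes that trim and amidate peptide precursors, fell from 1074 and 1097 CPM to 597, 553 and 568 CPM (−0.92, SE 0.08) and from 573 and 607 CPM to 233, 283 and 306 CPM (−1.11, SE 0.12). The endothelin receptor gene Ednrb and the natriuretic peptide clearance receptor gene Npr3 rose by 1.88 (SE 0.15) and 0.79 (SE 0.11); these 5 were all the changes among 9 tested genes of the neuropeptide list, and each held in all 5 fits. Of 18 tested angiogenic factors 7 fell (38.9%, beside 7.26% of all tested genes) and 1 rose, Vegfa, with a median of −0.78. The falls were 6 or 7 where a BMP2 library was left out. They included Thbs1 and Thbs2, given above, and the list was not split by effect on vessel growth. Angpt1, the ligand that steadies vessels, fell from 9.14 and 11.1 CPM to 1.13, 1.77 and 1.04 CPM (−2.98, SE 0.27), Nrp2, a co-receptor of VEGF and semaphorins, from 204 and 188 CPM to 34.7, 38.6 and 40.2 CPM (−2.37, SE 0.11), and Angptl4, an inhibitor of lipoprotein lipase, from 22.1 and 23.7 CPM to 4.25, 5.15 and 4.59 CPM (−2.31, SE 0.16). Without BMP2 replicate 1 the list had 2 rises. Of 7 endothelial markers Cdh5 and Cldn5 had 0 counts in all 5 libraries. The summed level was 0.295 and 0.397 CPM with vehicle and between 1.51 and 2.06 CPM with BMP2, there mostly Pecam1. Pecam1 had 0 counts in both vehicle libraries and stood at 1.23, 1.77 and 1.67 CPM with BMP2. It rose (6.68, SE 1.09, a ratio over 0 counts), though not in all 5 fits that left out a library.

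Among 28 tested proton pump subunits and carbonic anhydrases 2 rose and 2 fell, 7.14% each way, which is close to the 7.04% and 7.26% of all tested genes. Atp6v0a4, a subunit of the vacuolar proton pump best known from kidney (chromosome 6, 38048483 to 38124586), fell from 18.4 and 16 CPM to 0.755, 0.442 and 0.938 CPM, the largest fall among genes whose mean log2 CPM reached 2 (−4.51, SE 0.26, edgeR adjusted p = 1.06e-05). Atp6v0e2 fell from 4.57 and 4.1 CPM to 1.04, 0.883 and 0.938 CPM (−2.15, SE 0.32). The other a-subunit genes Atp6v0a1 (−0.13, SE 0.13), Atp6v0a2 (0.18, SE 0.11) and Tcirg1 (−0.35, SE 0.21) did not pass. Car12, a membrane carbonic anhydrase, rose from 11.6 and 8.46 CPM to 39.2, 59.9 and 54.2 CPM (2.34, SE 0.22). The second rise, that of Car6 (0.51), was lost without either vehicle library (0.49 and 0.51); the rises were 1 without vehicle replicate 1, and without BMP2 replicate 1 the list had 4 rises and 5 falls.

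Transcripts of 18 of 28 tested genes of cholesterol and fatty acid synthesis rose and 0 fell, with a median of 0.69; 8 rose in all 5 fits, and the count was 11 without vehicle replicate 1 and 9 without vehicle replicate 2. Scd1 and Scd2, the desaturases that make monounsaturated fatty acids, rose from 136 and 136 CPM to 391, 422 and 423 CPM (1.60, SE 0.10, edgeR adjusted p = 1.4e-05) and from 349.7 and 337 CPM to 679.9, 704 and 716 CPM (1.03, SE 0.09). Hmgcs1, an early enzyme of cholesterol synthesis, rose from 29.04 and 32.8 CPM to 56.4, 69.6 and 63.3 CPM (1.02, SE 0.13), and the squalene epoxidase gene Sqle by 0.83 (SE 0.13). Insig1, the sterol sensor that holds the pathway back, and the desaturase genes Fads2 and Fads1 rose by 0.93 (SE 0.11), 1.08 (SE 0.13) and 0.70 (SE 0.10). The BMP2 libraries lay above both vehicle libraries in each of these genes. The transcription factors of the pathway, Srebf2 (0.29, SE 0.10) and Srebf1 (−0.25, SE 0.10), did not pass. Without BMP2 replicate 1 there was 1 fall.

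Transcripts of 15 of 27 tested genes of glycolysis and hypoxia rose and 0 fell, with a median of 0.49; 6 rose in all 5 fits, and the count was 8 without vehicle replicate 1 and 6 without vehicle replicate 2. Slc2a1, the glucose transporter GLUT1, stood at 105 and 81.2 CPM with vehicle and 207, 268 and 264 CPM with BMP2 (1.40, SE 0.16). Slc16a3, which exports lactate, rose from 37.01 and 41.4 CPM to 119, 117 and 101 CPM (1.52, SE 0.12, edgeR adjusted p = 5.37e-05), and Ldha, which makes lactate, from 482 and 538 CPM to 1052, 862 and 846 CPM (0.85, SE 0.12). The phosphofructokinase gene Pfkp, the pyruvate kinase gene Pkm and the hypoxia-induced mitophagy gene Bnip3 rose by 0.85 (SE 0.12), 0.67 (SE 0.10) and 1.18 (SE 0.12). Exons of Pkm and Bnip3 overlap other genes over 15.3% and 22.2% of their bases. Gapdh (0.81) did not pass without vehicle replicate 2 (0.67), and, like Pgk1 and Pgam1, it has near-identical pseudogene copies among which reads could be split. Without BMP2 replicate 1 there was 1 fall. In the oxidative phosphorylation list 1 of 25 genes rose, Cox7a2 (0.38), and 0 fell, with a median of 0.16; the rises were 9 without BMP2 replicate 1 and 0 when any of the other 4 libraries was left out.

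**Figure D4:**
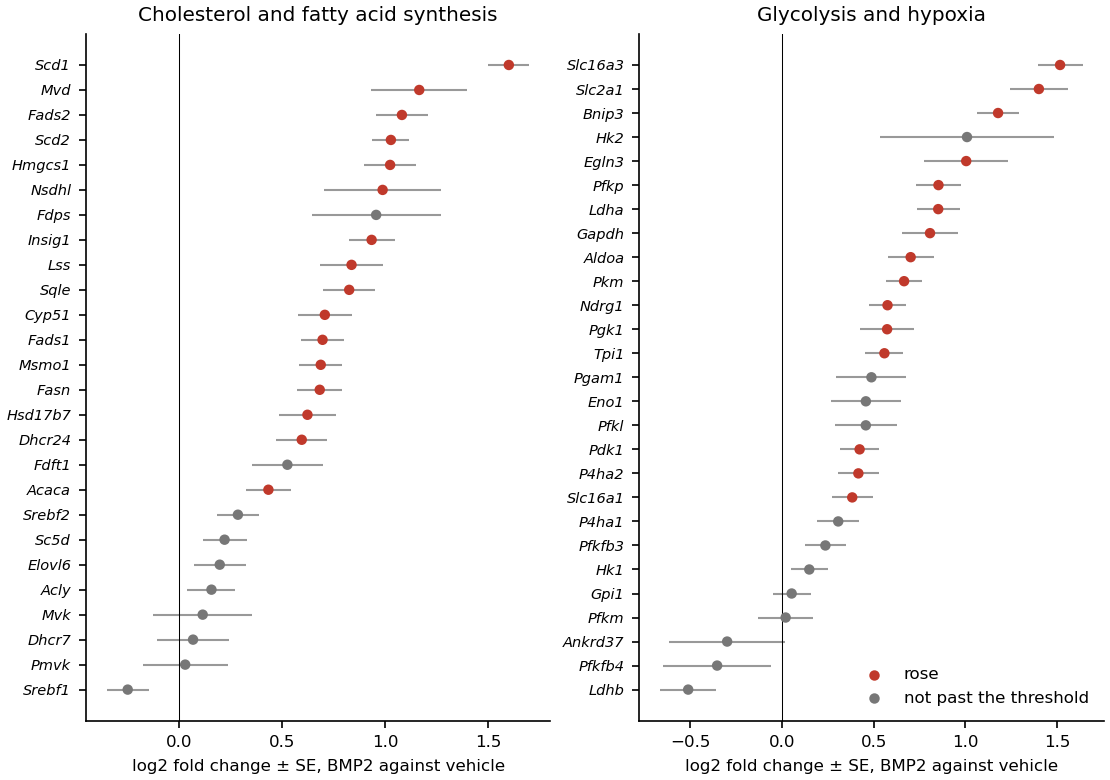
Log2 fold change, BMP2 against vehicle, with its SE for 26 of the 28 tested genes of cholesterol and fatty acid synthesis (left) and the 27 of glycolysis and hypoxia (right); red points rose and grey points did not pass the threshold. Scd1 and Slc16a3 lie at the top of their panels, and the 4 points left of 0 are grey.

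Of 36 tested genes of the cell cycle 6 rose (16.7%, beside 7.04% of all tested genes) and 2 fell (5.56%, beside 7.26%), and Mki67 (0.11, SE 0.10), Top2a (0.32, SE 0.11) and Pcna (0.23, SE 0.14) did not pass. Cdk6, a G1 kinase, stood at 85.95 and 86.8 CPM with vehicle and 164, 163 and 165 CPM with BMP2 (0.93, SE 0.10), and Cdkn1a, the inhibitor p21, rose from 263 and 251 CPM to 439.6, 458 and 469 CPM (0.82, SE 0.09). Ccnd1, cyclin D1, fell from 84.2 and 79.9 CPM to 45.6, 50.9 and 51.6 CPM (−0.73, SE 0.10), and Cdkn1c, the inhibitor p57 of resting and hypertrophic cells, from 105 and 119 CPM to 53.6, 49.8 and 53.98 CPM (−1.10, SE 0.10). Exons of Ccnd1 and Cdkn1c overlap genes on the other strand over 23.4% and 30.6% of their bases. The rises were 10 without BMP2 replicate 1, 2 without vehicle replicate 1 and 3 without vehicle replicate 2. Junb, an AP-1 subunit, rose from 7.81 and 4.89 CPM to 32.2, 34.5 and 35.7 CPM (2.43, SE 0.19), while the partner genes Fos (0.56, SE 0.28) and Fosl1 (−0.40, SE 0.30) did not pass. Of 17 tested AP-1 and immediate early genes 6 rose and 3 fell; the rises were 2 without either vehicle library, and the falls 1 without BMP2 replicate 2 or BMP2 replicate 3 and 0 without either vehicle library.

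Contractile genes that changed were lower with BMP2. Of 15 tested actin and contractile genes 6 fell and 0 rose, with 4 falls in all 5 fits and a median of −0.36; without BMP2 replicate 1 there was 1 rise. Tpm1, a tropomyosin, fell from 386 and 366 CPM to 203, 227 and 216 CPM (−0.80, SE 0.10), Cnn2, a calponin, from 55.1 and 61.4 CPM to 27.1, 27.8 and 31.6 CPM (−1.01, SE 0.11), and the myosin kinase gene Mylk fell by 1.20 (SE 0.19). The smooth muscle actin gene Acta2 was at 22.1 and 31.2 CPM and 28.7, 22.5 and 20.8 CPM and did not pass (−0.15, SE 0.18). Among 20 tested integrins and matrix receptors 3 rose and 4 fell, and the falls were 1 without vehicle replicate 2. Itga11, a collagen-binding integrin, fell from 27.9 and 31.5 CPM to 8.11, 9.72 and 10.8 CPM (−1.64, SE 0.16), whereas the collagen receptor gene Ddr1 and the syndecan gene Sdc3 rose by 1.09 (SE 0.11) and 1.0 (SE 0.11). Chaperones and collagen secretion changed in 3 of 27 tested genes, all rises. That is 11.1%, beside 7.04% of all tested genes that rose and 14.3% that changed. Dnajb9, an ER chaperone, rose by 0.69 (SE 0.10). Without BMP2 replicate 1 this list had 8 rises and 2 falls. In the ATF4 and amino acid list 8 of 26 genes rose and 1 fell, and no rise held in all 5 fits: the counts were 13 without BMP2 replicate 1, 2 without BMP2 replicate 2 or BMP2 replicate 3, 0 without vehicle replicate 1 and 1 without vehicle replicate 2. Its falls were 4 without BMP2 replicate 1 and 0 without either vehicle library.

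**Figure D5:**
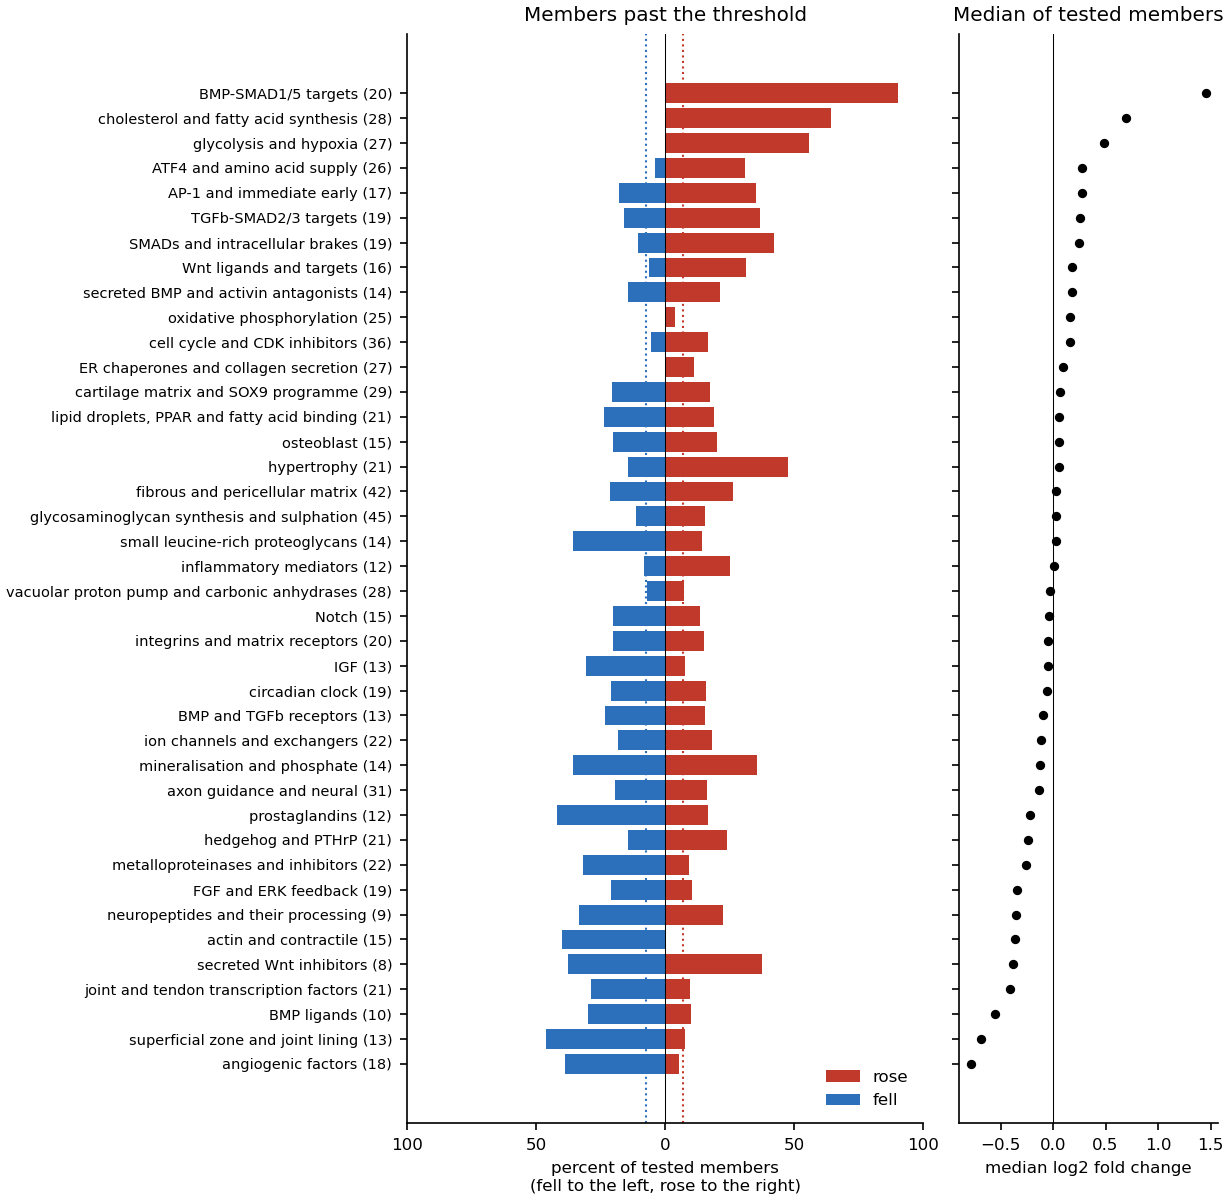
Left, the percent of tested members of each of 40 gene lists that rose (red, to the right) or fell (blue, to the left), with dotted lines at the 7.04% and 7.26% of all tested genes; the number of tested members stands in parentheses. Right, the median log2 fold change of each list, from 1.46 in the BMP-SMAD1/5 targets at the top to −0.78 in the angiogenic factors at the bottom.

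The largest changes included genes outside these pathways. Among genes whose mean log2 CPM reached 2 and whose groups did not overlap, the largest rise was that of Slc13a4, a sulphate transporter gene (chromosome 6, 35267957 to 35308131), from 0.295 and 0.265 CPM to 7.36, 9.28 and 8.13 CPM (4.80, SE 0.38). Hoxc13, a homeobox gene known from hair and nails, rose from 0.442 and 0.529 CPM to 11.04, 10.3 and 10.7 CPM (4.41, SE 0.30), and the keratin gene Krt16 from 0.59 and 0.397 CPM to 7.08, 9.28 and 8.44 CPM (4.03, SE 0.35). All of these were under 1 CPM in both vehicle libraries. Mcoln3, an endolysosomal cation channel, Spon2, a matrix protein of the spondin family, and Fabp7, a fatty acid binding protein, rose by 4.05 (SE 0.41), 3.93 (SE 0.37) and 3.52 (SE 0.24). Lzts1 and the adhesion molecule gene Chl1 rose by 3.23 (SE 0.27) and 3.09 (SE 0.19); the other 7 of the 15 largest rises, Dlx2, Dlx3, Ihh, Ptgs2, Nog, Notum and Hey1, are given above. Under the same conditions of level and overlap, the largest falls after that of Atp6v0a4 were those of Palmd, the gene of palmdelphin, from 10.8 and 13.5 CPM to 1.7, 0.589 and 1.35 CPM (−3.23, SE 0.30), Angpt1 and Penk. Faah, the enzyme that breaks down anandamide, fell from 18.7 and 16.8 CPM to 4.53, 2.8 and 2.92 CPM (−2.34, SE 0.22), and Sorbs2, an adaptor of the actin skeleton, from 122 and 127 CPM to 20.8, 33.6 and 32.1 CPM (−2.12, SE 0.17). Rgl1 (−2.36, SE 0.20), Itgbl1 (−2.32, SE 0.28), Rasl12 (−2.27, SE 0.18) and the cadherin gene Celsr2 (−2.17, SE 0.26) fell as well. Among the most abundant changed genes, the filament gene Vim fell from 1533 and 1579 CPM to 889.7, 1069 and 1028 CPM (−0.64, SE 0.10); Col11a1 fell by 0.31 and Hapln1, Plod2 and Cdsn rose by 0.42, 0.34 and 0.64, but of these Cdsn was lost only without vehicle replicate 2 (0.55), and the other 3 passed only with all 5 libraries or without BMP2 replicate 1.

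A fit over all 7 libraries set BMP2 directly against TGFβ1, at 100 and 5 ng/ml, so doses differ. Of 13367 genes tested there, 28.1% were higher and 33.3% lower with BMP2. The difference between the BMP2 and TGFβ1 libraries moved with the deposited gene length. Its median was −0.91 in the 3342 genes with the shortest length and 0.30 in the 3342 with the longest. BMP2 against vehicle in the same fit had medians of 0.01 and −0.04. In earlier results of these data the TGFβ1 libraries differed from each other with transcript length, and for this they were left out of the main fit. Effects of the ligand and of these libraries cannot be told apart in the length trend. The part of this length trend in single genes was not tested. Hey1 was at 0.662 and 0.687 CPM in the TGFβ1 libraries of this fit, and BMP2 exceeded TGFβ1 by 6.43 (SE 0.18). Panx3, Nog and Fgfr3 were higher with BMP2 by 5.15 (SE 0.16), 5.12 (SE 0.20) and 3.67 (SE 0.20). Prg4, at 6013 and 6290 CPM with TGFβ1, and Cemip were lower with BMP2, at −5.02 (SE 0.16) and −4.06 (SE 0.17). Pmepa1, which BMP2 raised over vehicle, was lower with BMP2 than with TGFβ1 (−3.19, SE 0.11), and Smad7 was higher (1.62, SE 0.12). Junb did not pass between the ligands (−0.20, SE 0.15).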

How the data were processed

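The deposited table of whole-number read counts per gene name, made by the authors, was used as it stands; its gene length column served for levels per kilobase and for the length trend. The submitters' processing notes name cutadapt, STAR 2.4.2a, Subread, featureCounts and DESeq2, and mm10, without their roles; the sources used here give neither the annotation nor the strand setting of the counting. BMP2 (n = 3) and vehicle (n = 2) libraries were fitted with edgeR 4.0.16 (R 4.3.3): filterByExpr, TMM, glmQLFit and glmQLFTest, 2-sided, Benjamini-Hochberg over all tested genes, threshold 0.05, 3 residual degrees of freedom. The standard error is the log2 fold change divided by the square root of the F statistic. The fit was checked on simulated counts. The direct comparison with TGFβ1 used all 7 libraries.

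The members, the 40 gene lists and the 10 marker lists were chosen with earlier results of these data known. Genes were named by rule: the 15 largest rises and falls whose mean log2 CPM reached 2 and whose groups did not overlap, up to 6 members of each list by p, a fixed set, and the 6 most abundant rises and falls. Alternatives were DESeq2 1.42.0, its size factors in edgeR, no count filter, all 7 libraries, a replicate block and leaving out each library. Promoter windows came from RefSeq (GRCm38.p6). Some list members are counted but not reported here by name.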

Additional observations from a re-analysis of the deposited data

How the results depend on the processing

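Leaving out 1 library at a time moved the number of rises between 280 and 1516 and of falls between 335 and 1494; with 1 vehicle library left, that library is assumed to vary like the BMP2 libraries. In the other alternatives the counts stayed within 1.5 times the 858 rises and 884 falls: 730 and 667 with DESeq2, 857 and 892 with its size factors in edgeR, 1280 and 1067 without a count filter, 713 and 822 with all 7 libraries. The median of all genes was 0.09 without the filter, a shift against which its changes are read. Of the 1742 changed genes, 1364, 1739, 1686 and 1490 passed in these 4 fits in turn, and 0 passed in the opposite direction in any alternative run. The replicate block gave 685 rises and 667 falls, with 1187 of the 1742 kept. In their deviations from the group mean, same-numbered libraries correlated at −0.23 (replicate 1) and −0.13 (replicate 2). BMP2 replicate 1 with vehicle replicate 2 gave 0.23, and BMP2 replicate 2 with vehicle replicate 1 gave 0.13. With 2 vehicle libraries their deviations mirror each other, so these values cannot decide whether the numbers pair the libraries. Of 312 changed genes among the 786 named or listed, 154 passed in all 5 fits without a library. With 2 vehicle libraries and library totals of 6747997 to 10686885 counts, the smallest change called was 0.31 (log2), and genes under the count filter could not be compared.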

Other observations

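Axon guidance genes changed in 11 of 31 tested members, 5 upward and 6 downward, with a median of −0.14. Plxna4 and Plxna2, receptors of semaphorins, rose from 2.95 and 3.31 CPM to 8.49, 10.3 and 10.3 CPM (1.62, SE 0.22) and from 18.9 and 19.3 CPM to 39.2, 40.5 and 42.7 CPM (1.10, SE 0.11). The netrin receptor gene Unc5b and the ephrin receptor gene Ephb2 rose by 0.84 (SE 0.11) and 0.75 (SE 0.11). Efnb2, the gene of ephrin B2, a ligand of Eph receptors, fell from 31.6 and 29.2 CPM to 10.2, 10.9 and 10.8 CPM (−1.51, SE 0.13), and Sema3d, a secreted semaphorin, fell by 0.76 (SE 0.10). These 6 changes passed in all 5 fits that left out a library; the falls of the list were 9 without BMP2 replicate 1, 2 without vehicle replicate 1 and 3 without vehicle replicate 2.

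Among 22 tested ion channels and exchangers the sodium-calcium exchanger gene Slc8a3 rose from 7.52 and 8.07 CPM to 32.5, 25.8 and 26.8 CPM (1.86, SE 0.17), the 1 member beside Panx3 to pass in all 5 fits. The list had 4 rises and 4 falls; the rises were 2 without either vehicle library, and the falls were 2 without BMP2 replicate 2 or BMP2 replicate 3, 0 without vehicle replicate 1 and 1 without vehicle replicate 2. The water channel gene Aqp1 stood at 2.95 and 2.51 CPM with vehicle and 0.377, 0.883 and 0.313 CPM with BMP2 (−2.45, SE 0.46) and lost its call without either vehicle library (−2.32 and −2.57). Of 19 tested clock genes 3 rose and 4 fell; the rises were 0 without either vehicle library and 1 without BMP2 replicate 2, and the falls were 2 without either vehicle library. The output genes Dbp and Tef fell in all 5 fits, Dbp from 13.9 and 12.96 CPM to 5.47, 5.45 and 6.25 CPM (−1.22, SE 0.17) and Tef fell by 0.80 (SE 0.12); exons of Dbp overlap other genes over 18.01% of their bases. The core clock gene Arntl was at 9.88 and 8.2 CPM and 10.1, 11.5 and 6.77 CPM (0.05, SE 0.24) and did not pass. In lipid handling 4 of 21 tested genes rose and 5 fell; the rises were 2 without BMP2 replicate 3 and 1 without either vehicle library, where the falls were 3. Fabp7 was the rise that passed in all 5 fits. Acadm, an enzyme of fatty acid oxidation, fell from 18.1 and 20.8 CPM to 8.77, 10.5 and 10.2 CPM (−0.99, SE 0.16), and it and Angptl4 were the falls that passed in all 5.

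Summed leukocyte markers were 27.6 and 39.1 CPM with vehicle and between 20.2 and 24.0 CPM with BMP2, with Lyz2 the largest part. Lyz2 fell (−0.80, SE 0.21), though not in all 5 fits that left out a library, and the other 6 tested markers did not pass. Neutrophil markers were 1.98 to 2.36 CPM with vehicle and 5.15 to 12.1 CPM with BMP2, mostly from S100a8 and S100a9. S100a9 rose (1.91, SE 0.51), though not in all 5 fits that left out a library, and S100a8 did not pass (2.0, SE 0.69). Ngp, below the count filter, stood at 0.295 and 0.265 CPM with vehicle and 0.849, 1.33 and 1.25 CPM with BMP2. Ltf was under 0.6 CPM and Elane and Camp were under 0.2 CPM in each library, and Mpo had 0 counts. Adipocyte markers were under 0.6 CPM in each of the 5 libraries. Pericyte markers were 237.7 and 242.1 CPM with vehicle and 342.5 to 397.4 CPM with BMP2, mostly from Cspg4. Cspg4 rose (0.69, SE 0.10), though not in all 5 fits that left out a library. Acta2, the next largest part and given above, and Notch3 did not pass, and Rgs5 and Myh11 were under 0.8 CPM in each of the 5 libraries. Osteoclast markers were 99.4 and 104.9 CPM with vehicle and 112.9 to 156.6 CPM with BMP2, nearly all from Ctsk, which did not pass (0.38, SE 0.14). Acp5 lay lower with BMP2, at 1.7, 2.21 and 1.98 CPM beside 3.69 and 2.51 CPM with vehicle, and did not pass (−0.66, SE 0.33). Ocstamp and Dcstamp were under 0.2 CPM in each library. Skeletal muscle markers were 9.88 to 21.6 CPM with vehicle and 10.6 to 16.4 CPM with BMP2, mostly from Tnnt3, which did not pass (−0.29, SE 0.30). Erythroid markers were under 0.7 CPM in each library.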
